A study of Mus musculus with 24 samples.

Results

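The glycine receptor subunit genes Glra1, Glra2, Glra3 and Glrb and the gephyrin gene Gphn were followed across brain region and breeding line. They were read by 10 probe sets of 5 genes, out of 45037 probe sets and 18193 named genes. A probe set is a group of short probes that reads 1 transcript or a stretch of it, and all probe sets whose platform annotation gave 1 of these symbols and no other were taken. Glra1, Glra3 and Glrb have 2 probe sets each, Gphn has 3 and Glra2 has 1. No filter on low values was applied, so all 10 were fitted. The genes were chosen partly on earlier values of these arrays, among them the tissue difference of Glra3 and the line difference of Glra1 in amygdala. The tissue comparison and the amygdala line comparison are therefore given as descriptions of the members, without a test, and p-values are given for the hippocampus line comparison.

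Tissue came from male mice of 2 lines bred for their freezing in contextual fear conditioning, in which a mouse is returned to the chamber where it was shocked and the time it stays motionless is scored. The groups were amygdala of the high freezing line (line 25), amygdala of the low freezing line (line 24), hippocampus of the high freezing line and hippocampus of the low freezing line, with 6 Affymetrix arrays each. Arrays of the high line carry the numbers 7 to 12 and those of the low line 1 to 6 in both tissues. The sources used here do not state age, strain background or pooling of animals. Each level of freezing is represented by 1 line, so selection and drift between the lines cannot be told apart. Nothing says that the arrays came from separate animals, so the errors measure the spread between arrays, which may be technical.

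Glycine receptors are chloride channels built of subunits around a central pore, and in mature neurons their opening usually inhibits the cell. The alpha subunits, encoded by Glra1 to Glra4, carry most of the glycine binding site and set the receptor's kinetics, while the beta subunit, encoded by Glrb, holds the receptor at synapses by binding gephyrin. Gephyrin is the scaffold under both glycine and GABA-A receptors at inhibitory synapses, and the same protein carries out the last steps of molybdenum cofactor synthesis. Alpha1 is the main adult subunit of spinal cord and brainstem, and alpha2 and alpha3 are the alpha subunits best known from forebrain.

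The labelled tissues were checked against marker genes, each read by its brightest probe set. Of 10 hippocampus markers 9 were called lower and 1 higher in amygdala (limma, Benjamini-Hochberg adjusted p under 0.05), and 6 of the 7 amygdala markers passed as higher in amygdala. Over all probe sets, and not only the brightest of each gene, 25.8% were called between the tissues. All 7 striatum markers were called higher in amygdala too, with summed signals of 2104 to 4441 on amygdala arrays and 676 to 842 on hippocampus arrays. Of 7 hypothalamus markers 4 were called higher and 1 lower in amygdala. Of 6 brainstem and spinal cord markers none was called higher and 1 lower. In bulk tissue, fewer cells of a type and less RNA per cell cannot be told apart. The 5′ control probe set of 18S ribosomal RNA, a reading of RNA and label preparation, gave 295.5 to 1525 on amygdala arrays and 3600 to 7093 on hippocampus arrays. Tissue and preparation therefore cannot be told apart in the comparison of the tissues.

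Signals are the authors' linear intensities, for which the array medians ran from 43.3 to 55.7. Differences are on the scale of log2(signal + 16), which understates the change of weak signals. Group values are the lowest, the median and the highest of 6 arrays unless stated otherwise, and levels of different genes are not set against each other. For probe sets of the same gene, a ratio is used only to see whether it is the same on arrays of both tissues.

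Glra3, the alpha3 subunit, was the member with the largest difference between the tissues. Its brighter probe set 1457747_at read 243, 335 and 363 in amygdala of the high line and 215.5, 277 and 416 in amygdala of the low line. Hippocampus arrays gave 11.4, 29.8 and 50.9 in the high line and 31.6, 35.3 and 36.3 in the low line. The 12 amygdala arrays did not overlap with the 12 hippocampus arrays, and all hippocampus arrays lay below their own array's median signal. The mean signal was 301 ± 61.6 in amygdala and 32.1 ± 9.3 in hippocampus (SD, n = 12 arrays each). No linear fold is given, because no detection call was used and all hippocampus signals lay below the array medians. The difference was 2.72 ± 0.11 SE on the log2 scale. It was 2.91 ± 0.16 within the high line and 2.53 ± 0.16 within the low line. By the mean, the order was amygdala of the high line, amygdala of the low line, hippocampus of the low line and hippocampus of the high line, and only the step from amygdala to hippocampus, 2.53, was wider than the spread of the groups on either side.

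The other Glra3 probe set, 1450239_at, had weak signals that lay below the array median on all 24 arrays. It read 1.3, 9.1 and 22.4 in amygdala of the high line and 2.8, 7.9 and 15.0 in amygdala of the low line. Its hippocampus readings were 1.6, 3.6 and 7.2 in the high line and 1.5, 3.9 and 14.8 in the low line. All 4 groups overlapped. The difference between the tissues had the same sign as on the brighter probe set but was 0.25 ± 0.13 SE, and averaging both probe sets gave 1.49. The size of the Glra3 difference thus rests on 1 of its 2 probe sets.

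Glra2, the alpha2 subunit, which is also the main alpha subunit of the developing brain, was higher in amygdala on its only probe set, 1434098_at. It read 234, 263 and 335 in amygdala of the high line and 231, 272 and 334 in amygdala of the low line. In hippocampus the values were 55.2, 84.7 and 98.9 in the high line and 52.7, 60.9 and 62.7 in the low line. Again no amygdala array overlapped with a hippocampus array, and all 24 arrays lay above their array's median. The mean signal was 3.94 times as high in amygdala (279 ± 39.6 against 70.8 ± 16.5, SD, n = 12), a log2 difference of 1.78 ± 0.08 SE. That difference was 1.59 ± 0.11 within the high line and 1.96 ± 0.11 within the low line. The 2 amygdala groups had the same mean log2 level, 8.19 ± 0.20 in each line (SD, n = 6).

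**Figure D1:**
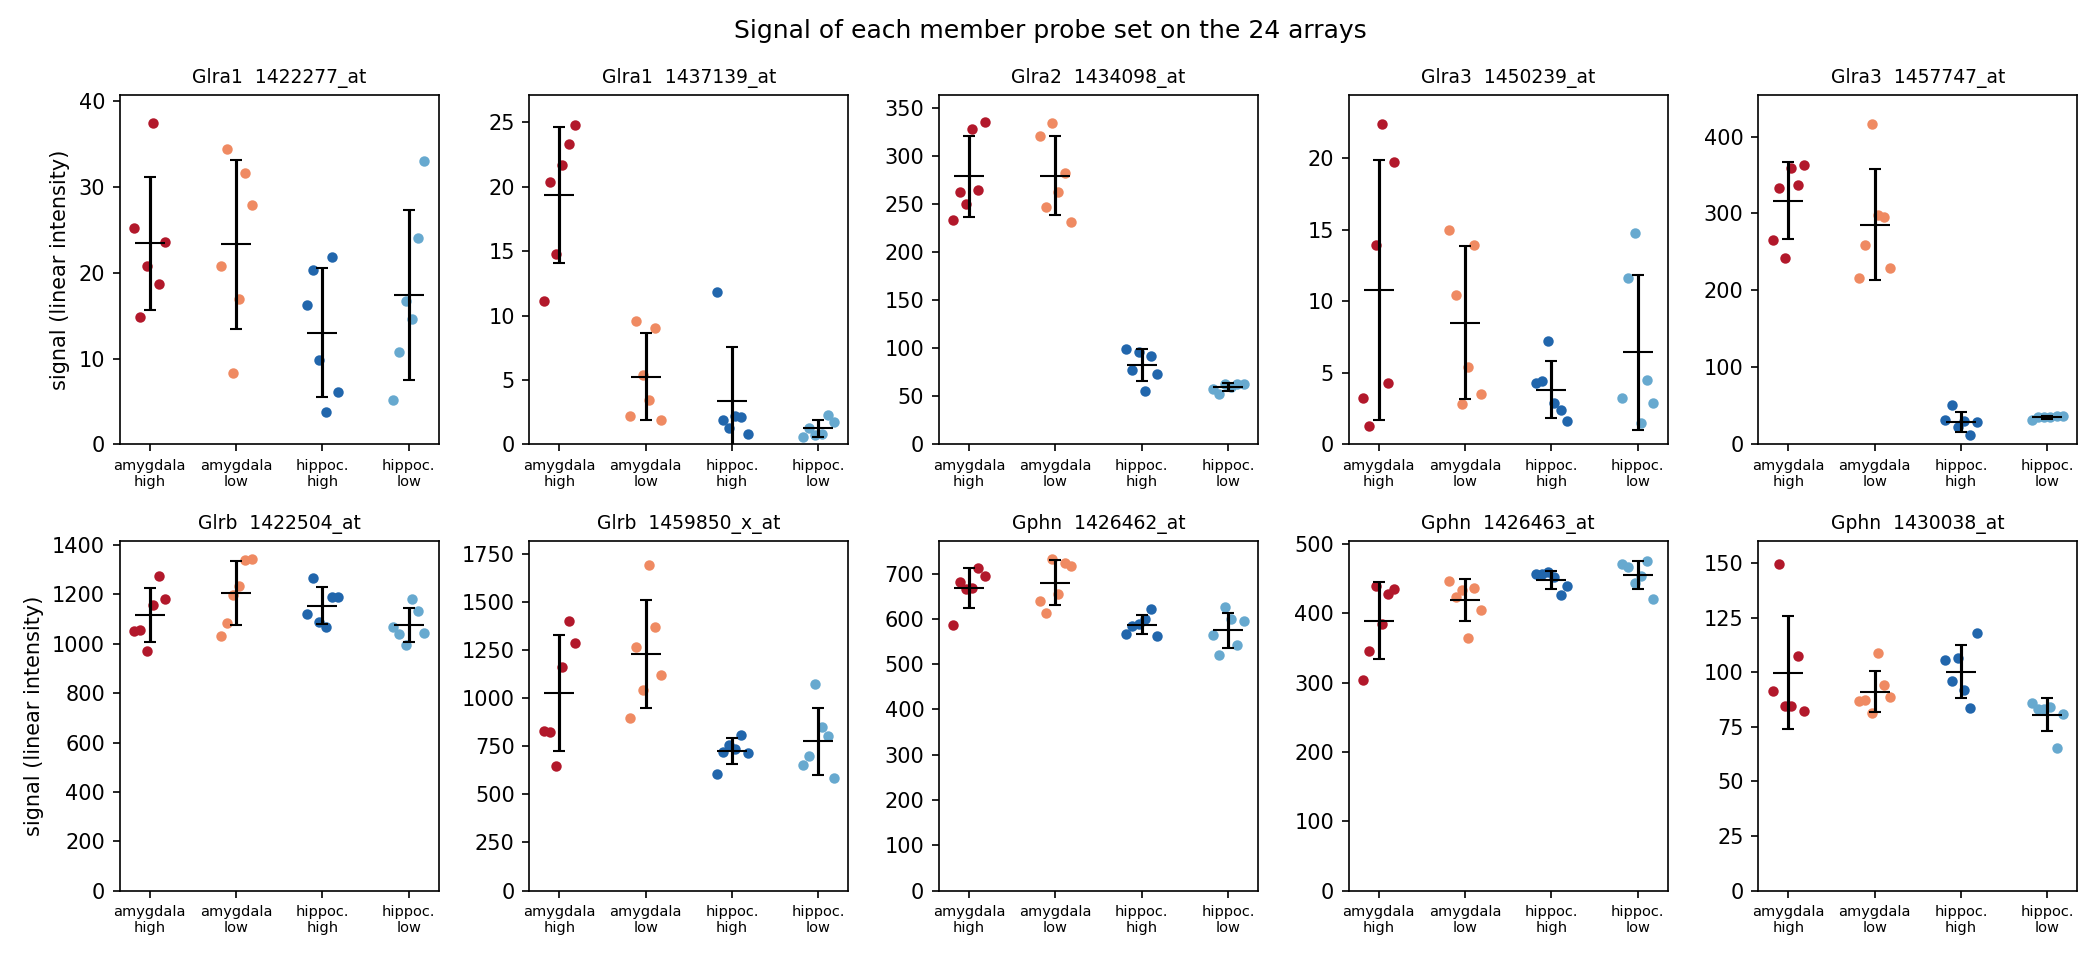
Linear signal (y axis, from 0, a scale per panel) of the 10 probe sets on the arrays of the 4 groups, each point 1 array, with the mean and SD in black. Glra2 1434098_at and Glra3 1457747_at lie above all hippocampus arrays on every amygdala array, while both Glra1 probe sets and Glra3 1450239_at stay at or below 37.5.

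Upstream sequence is shown for Glra3 and Glra2, the members with separate tissue levels, and for Glrb, whose brightest probe set was even across the tissues. Each run is the 250 bases before a transcription start in RefSeq's GRCm38.p6 table, written 5′ to 3′ on the gene's strand. Capitals mark each CG dinucleotide. The table holds 1 window for each of these genes, and the arrays do not say which start was used.
Glra3 (chr8:55940168-55940417, plus strand): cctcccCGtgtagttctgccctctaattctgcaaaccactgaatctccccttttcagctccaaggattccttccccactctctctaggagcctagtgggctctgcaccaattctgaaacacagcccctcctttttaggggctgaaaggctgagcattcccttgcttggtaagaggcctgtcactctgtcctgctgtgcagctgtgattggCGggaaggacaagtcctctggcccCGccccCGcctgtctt
Glra2 (chrX:165327394-165327643, minus strand): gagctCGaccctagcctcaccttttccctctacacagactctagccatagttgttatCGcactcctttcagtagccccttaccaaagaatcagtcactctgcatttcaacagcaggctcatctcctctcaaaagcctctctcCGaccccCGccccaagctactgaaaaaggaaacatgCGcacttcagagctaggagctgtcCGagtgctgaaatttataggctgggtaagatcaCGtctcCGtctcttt
Glrb (chr3:80913661-80913910, minus strand): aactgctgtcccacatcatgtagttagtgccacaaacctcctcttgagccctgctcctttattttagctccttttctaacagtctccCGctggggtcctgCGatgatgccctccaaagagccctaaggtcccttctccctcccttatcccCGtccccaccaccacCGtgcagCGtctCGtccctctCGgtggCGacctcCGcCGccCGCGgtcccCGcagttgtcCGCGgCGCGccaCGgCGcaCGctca
The Glra3 window holds 4 CG and the Glra2 window 8, against 20 for Glrb and 34 for the Gphn window, which is not printed. Over the 32851 windows of the table the median was 6, with quartiles of 2 and 16. The Glra3 window thus had more CG than 37.8% of all windows and the Glra2 window more than 57.0%, while Glrb had more than 82.1% and Gphn more than 96.5%. The motif TATAAA, searched on both strands, was found in the Glra2 window and in none of the other 3, against 12.4% of all windows. The motif GGGCGG, also searched on both strands and itself holding a CG, was found in all 4 windows, against 32.7% of all windows. A match is a description of the letters and not a binding site.

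Genes whose profile over the 24 arrays was closest to these receptors were named by the smallest root mean square difference of the mean-centred log2 values. For Glra3 1457747_at these were Baiap3 (0.31), the calcium and calmodulin kinase gene Camk2d (0.32) and the dopamine receptor gene Drd1 (0.37), where a flat profile would lie at 1.39. For Glra2 they were Unc13c (0.20), which encodes a protein of vesicle priming, Zcchc12 (0.20) and the peptide precursor gene Cartpt (0.21), where a flat profile would lie at 0.91. Drd1 is also among the striatum markers, and it averaged 554 and 601 on amygdala arrays of the high and low lines against 72.3 and 69.1 on hippocampus arrays of the high and low lines. The part of striatum tissue or of 18S preparation in the Glra2 and Glra3 levels was not tested. These likenesses share the tissue step, so they rest mainly on the 2 tissues.

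Glra1, the alpha1 subunit, had weak signals on both probe sets, below the array median on all 24 arrays. Probe set 1437139_at read 11.1, 21.0 and 24.8 in amygdala of the high line and 1.9, 4.4 and 9.6 in amygdala of the low line. In hippocampus it read 0.8, 2.0 and 11.8 in the high line and 0.6, 1.0 and 2.3 in the low line. Every amygdala array of the high line lay above every amygdala array of the low line, a pattern that 0.402% of all probe sets showed in either direction and that 1 of the 10 member probe sets showed. Since this contrast was known when the genes were chosen, nothing is read from that count. The difference between the lines in amygdala was 0.73 ± 0.13 SE, and it was 1.84 on the scale of log2(signal + 1) and 0.27 on that of log2(signal + 64), as happens with signals this low.

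The second Glra1 probe set did not show that pattern. Probe set 1422277_at read 14.8, 22.2 and 37.5 in amygdala of the high line and 8.3, 24.4 and 34.4 in amygdala of the low line, with a difference of 0.02 ± 0.18 SE. Hippocampus arrays gave 3.8, 13 and 21.9 in the high line and 5.2, 15.7 and 33.0 in the low line. The groups overlapped at every step of their order. The tissue difference was 0.35 ± 0.15 SE here and 0.58 ± 0.09 SE on 1437139_at. Within the high and low lines it was 0.46 ± 0.21 and 0.25 ± 0.21 here, and 0.88 ± 0.12 and 0.29 ± 0.12 on 1437139_at. On 1437139_at the amygdala arrays of the high line thus enter both the tissue and the line difference. The probe sets shared the sign of the tissue difference and not the size of the line difference. Averaged over both, the amygdala line difference was 0.38.

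Array and marker readings beside the amygdala values of Glra1 were as follows. The actin 5′ to 3′ signal ratio was 0.301 on amygdala array 7 and 0.339 on amygdala array 8 (high line), against 0.554 to 0.617 on the other 4 arrays of the high line and 0.497 to 0.630 in the low line. Without these arrays the Glra1 1437139_at difference was 0.81 ± 0.13 SE. Brainstem and spinal cord markers, the tissue in which alpha1 is best known, summed to 124 to 190.1 in the high line and 156 to 232 in the low line in amygdala. Among them, Hoxb5 and Slc6a5, the glycine transporter of glycinergic neurons, averaged 2.3 and 7.8 in amygdala of the high line and 2.1 and 9.4 in amygdala of the low line. Of the 6 markers measured, 5 had amygdala means below the lowest array median, 43.3, in both lines. The exception was Hoxa5, which averaged 122 in the high line and 131 in the low line and made up most of the sum. These single markers were picked out after their values were seen, and the part of such tissue in the Glra1 values was not tested.

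Glrb, the beta subunit that every synaptic glycine receptor needs, had high signals on both probe sets. Probe set 1422504_at read 971, 1107 and 1275 in amygdala of the high line and 1030.4, 1218 and 1343 in amygdala of the low line. Its hippocampus readings were 1066, 1155 and 1267 in the high line and 994, 1056 and 1182 in the low line. The 4 groups overlapped at every step, with means that spanned 0.16 on the log2 scale, and the tissue difference was 0.05 ± 0.06 SE. The level of this probe set was thus close to even where those of Glra2 and Glra3 were apart.

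The second Glrb probe set, 1459850_x_at, spread more widely. The suffix x marks a set in which some probes can match other transcripts. It read 649, 994 and 1403 in amygdala of the high line and 896, 1194 and 1690.4 in amygdala of the low line. In hippocampus the values were 604, 730 and 807 in the high line and 585, 751 and 1072 in the low line. The tissue difference was 0.55 ± 0.12 SE, 0.45 ± 0.18 within the high line and 0.65 ± 0.18 within the low line, although the arrays overlapped. The ratio of this probe set to 1422504_at on the same array had a median of 0.94 in amygdala (0.67 to 1.37) and 0.68 in hippocampus (0.54 to 1.08), so the probe sets of Glrb did not share the tissue difference. The averaged tissue difference of both was 0.30.

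Gphn, gephyrin, lay above the array median on all 24 arrays with each of its probe sets, and its 2 brighter probe sets had tissue differences of unlike sign, both small. Probe set 1426462_at read 587, 676 and 712 in amygdala of the high line and 613, 686 and 732 in amygdala of the low line. In hippocampus it read 563, 587 and 622 in the high line and 520.4, 579.7 and 626 in the low line. It was higher in amygdala by 0.21 ± 0.05 SE, at 0.18 ± 0.06 within the high line and 0.24 ± 0.06 within the low line, with overlapping arrays.

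Probe set 1426463_at had the opposite sign. It read 304, 406 and 439 in amygdala of the high line and 364, 429 and 447 in amygdala of the low line. Hippocampus arrays gave 427, 455 and 459.6 in the high line and 421, 461 and 476 in the low line. The tissue difference was -0.16 ± 0.06 SE, at -0.21 ± 0.08 within the high line and -0.12 ± 0.08 within the low line. It ran from -0.18 to -0.10 over the alternatives tried, with the value nearest 0 without amygdala arrays 7 and 8, which had the lowest signals of this probe set in the high line and the low actin ratios.

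On single arrays, the ratio of 1426463_at to 1426462_at had a median of 0.60 in amygdala (0.51 to 0.70) and 0.78 in hippocampus (0.69 to 0.90). The tissues overlapped only between 0.69 and 0.70. The ratio shows that the signals of these probe sets changed unequally between the tissues, and it does not say which of them changed. The third probe set, 1430038_at, was weaker, with 82.1, 88.0 and 149.7 in amygdala of the high line, 81.2, 87.9 and 109 in amygdala of the low line, 83.7, 101 and 118 in hippocampus of the high line and 65.4, 83.1 and 86.0 in hippocampus of the low line. Its tissue difference was 0.06 ± 0.08 SE. Averaged over the 3 probe sets the Gphn tissue difference was 0.04.

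**Figure D2:**
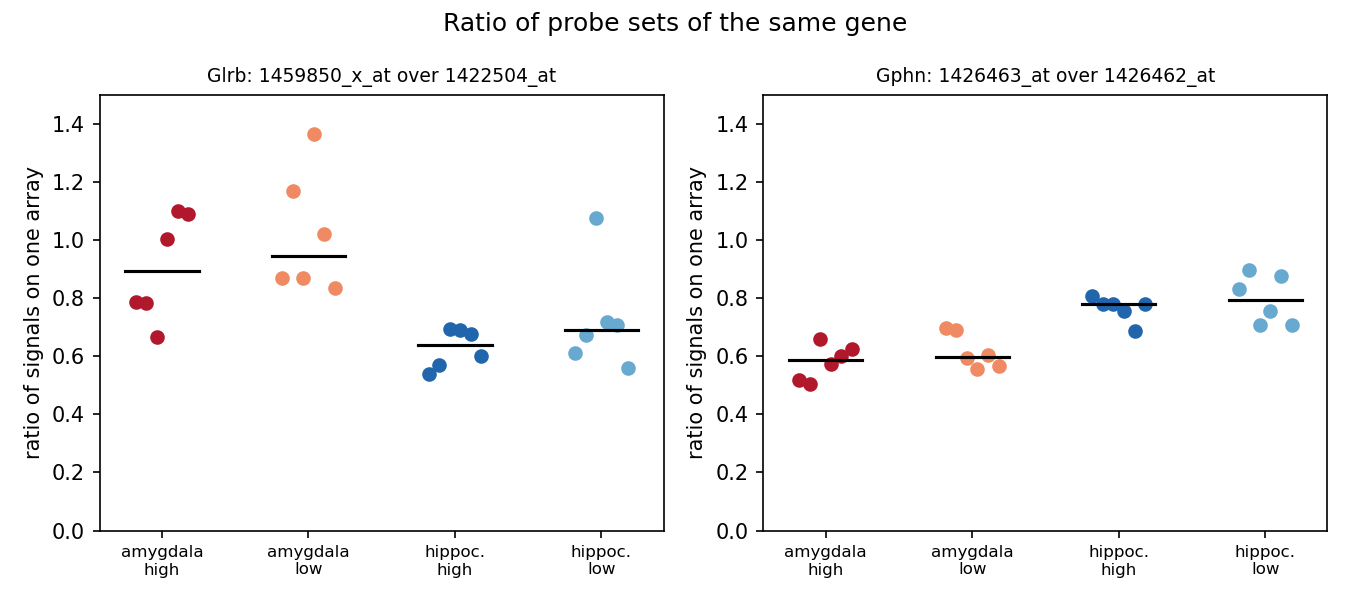
Ratio of the signals of 2 probe sets of the same gene on each array (y axis, from 0), for Glrb and Gphn, by group, with the group median as a line. The Gphn ratio runs from 0.51 to 0.70 on amygdala arrays and from 0.69 to 0.90 on hippocampus arrays.

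Over all members, the tissues did not overlap on 2 of the 10 probe sets, Glra2 1434098_at and Glra3 1457747_at, where they did not on 4.91% of all probe sets. The median tissue difference of the members was 0.30, against -0.02 over all probe sets, and the median size was 0.30 against 0.15. These figures describe genes chosen with this contrast known. The members' median line difference in amygdala was 0.01, with 5 positive and 5 negative.

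Apart from Glra1 1437139_at, the groups of the 2 lines overlapped in amygdala on every member probe set. Glra3 was at 0.16 ± 0.15 SE on 1457747_at and 0.09 ± 0.22 SE on 1450239_at. Glrb was at -0.11 ± 0.09 SE on 1422504_at and -0.28 ± 0.20 SE on 1459850_x_at, the same sign on both. Gphn was at -0.02 ± 0.07 SE on 1426462_at, -0.11 ± 0.10 SE on 1426463_at and 0.09 ± 0.13 SE on 1430038_at, so its probe sets did not share a sign. The value of 1426463_at rests on amygdala arrays 7 and 8 of the high line, without which it was 0.01.

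**Figure D3:**
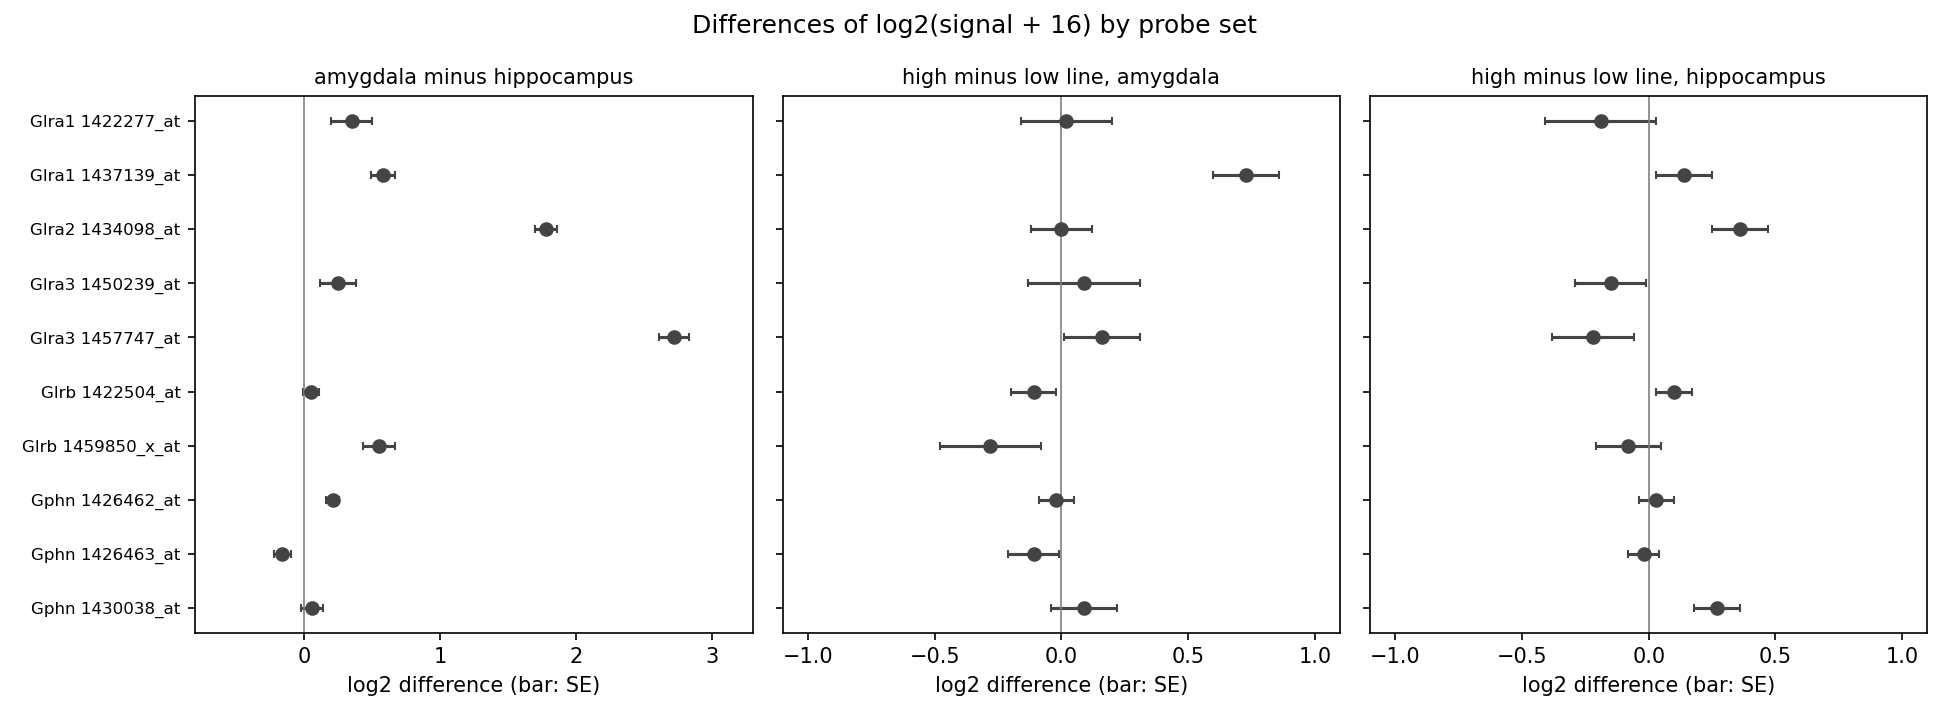
Log2 differences with SE (x axis) of the 10 probe sets for amygdala minus hippocampus and for high minus low line in each tissue. Glra3 1457747_at (2.72) and Glra2 (1.78) stand apart in the tissue panel, and in the line panels the largest are Glra1 1437139_at in amygdala (0.73) and Glra2 in hippocampus (0.36).

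The hippocampus line comparison asks whether these genes differ between mice bred for high and for low freezing in the region that contextual learning is known to need. None of the 10 member probe sets passed the threshold in limma, where 0.0222% of all probe sets did. At an unadjusted p under 0.05 there were 2 of 10, where 8.97% of all probe sets lay. The lines did not overlap on 0 of 10, where they did not on 0.637% of all probe sets. The members' median difference was 0.01 with 5 positive and 5 negative, and the median size was 0.15, against 0.12 over all probe sets.

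Glra2 had the largest difference in hippocampus, at 0.36 ± 0.11 SE (6.60 ± 0.26 in the high line against 6.24 ± 0.08 in the low line, SD, n = 6, limma adjusted p = 0.407). On 5 of the 6 arrays of the high line it was higher than on any array of the low line, and array 10 of the high line, at 55.2, lay inside the range of the low line. The 95% interval ran from 0.11 to 0.61. Leaving out 1 array at a time gave 0.31 to 0.45 with adjusted p of 0.167 to 0.588. Gphn 1430038_at followed with 0.27 ± 0.09 SE (6.85 ± 0.15 in the high line against 6.59 ± 0.12 in the low line, limma adjusted p = 0.432) and an interval of 0.07 to 0.46. The brighter Gphn probe sets lay at 0.03 (-0.11 to 0.18) and -0.02 (-0.15 to 0.11), so the difference on 1430038_at was not shared by them.

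The remaining members had intervals that included 0 in hippocampus. Glra3 1457747_at was at -0.22 ± 0.16 SE (limma adjusted p = 0.735, interval -0.57 to 0.14), with a spread of 0.42 in the high line against 0.05 in the low line. Its highest array and its lowest, at 50.9 and 11.4, were both of the high line. Glra1 was at 0.14 on 1437139_at and -0.19 on 1422277_at, and Glrb at 0.10 (-0.06 to 0.25) on 1422504_at and -0.08 (-0.37 to 0.21) on 1459850_x_at. The intervals of the brighter Glrb and Gphn probe sets bound a line difference in hippocampus at 0.25 or less in size on the log2 scale, while those of the Glra1 and Glra3 probe sets allow larger ones.

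Other readings separated the same hippocampus arrays. The 18S control read 3600 to 5799.9 in the high line and 5859 to 7093 in the low line, without overlap. For Glra2 and the other members in hippocampus, line cannot be told apart from RNA or label preparation. Summed hippocampus markers ran from 7922 to 8753 in the high line and from 9347 to 10317 in the low line. Hpca, the brightest of them, weighs most in this sum, with hippocampus means of 4107 in the high line and 4815 in the low line. Wfs1, which was higher in amygdala by 0.91 on the log2 scale, is counted in it. Summed amygdala markers, among which Glra2 is not counted, ran from 1596 to 1685 in the high line and from 1328 to 1536 in the low line. Without Lypd1, whose line difference in hippocampus was known when the marker list was written, they ran from 1167 to 1298 in the high line and from 1129 to 1220 in the low line and overlapped. No single marker of either list was called between the lines in hippocampus, where 0.0222% of all probe sets were. The part of these readings in the Glra2 difference was not tested.

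**Figure D4:**
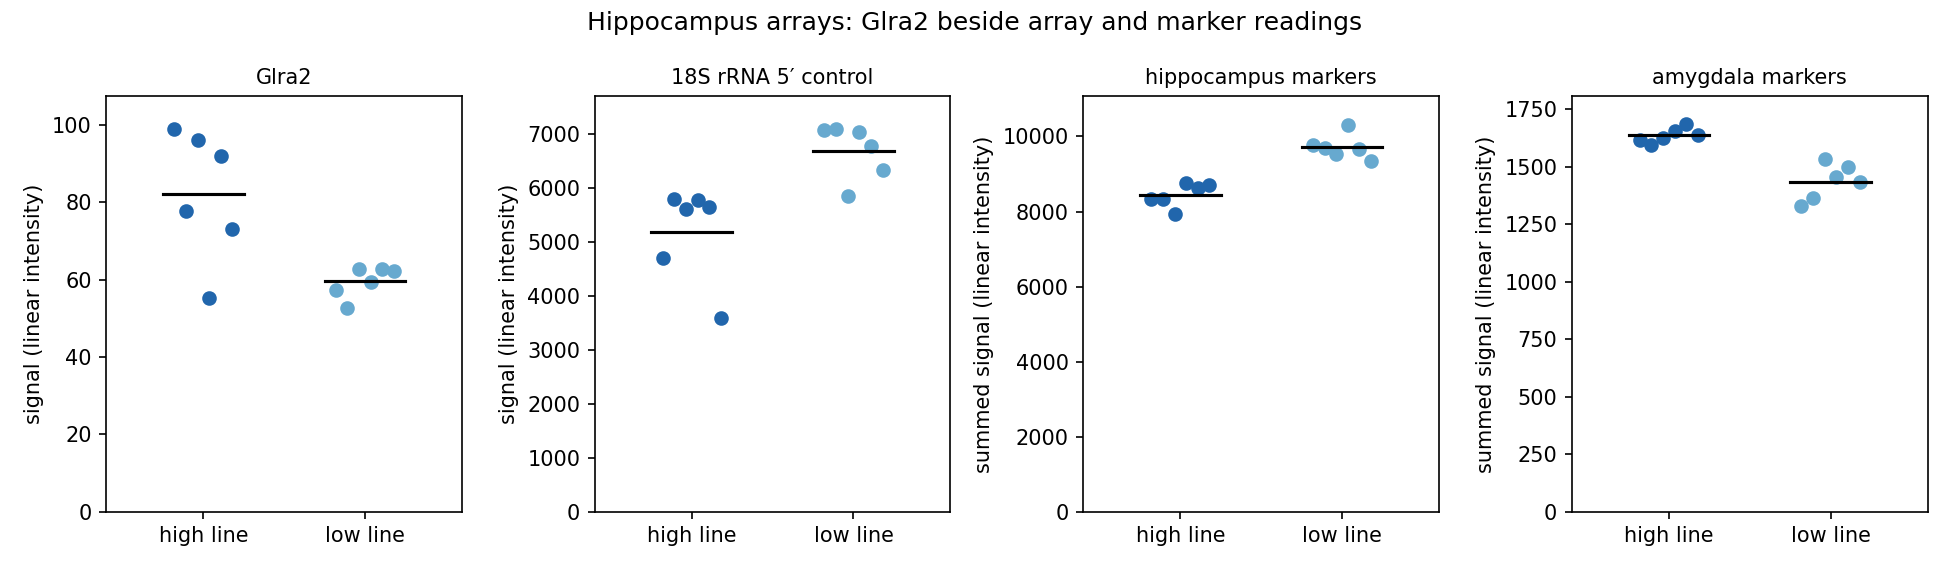
Hippocampus arrays of the high and low line: signal of Glra2 1434098_at, signal of the 18S ribosomal RNA 5′ control, and summed signals of the hippocampus and amygdala markers (y axes from 0, linear intensity), each point 1 array, with the mean as a line. Glra2 overlaps through 1 array of the high line at 55.2, while the other 3 readings do not overlap between the lines. The amygdala marker sums shown include Lypd1, without which they overlap.

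The line effect was also compared between the tissues. None of the 10 members passed in limma, and 0 of 45037 probe sets did. At an unadjusted p under 0.05 there were 2 of 10 members and 7.08% of all probe sets. The 2 were Glra1 1437139_at, whose line difference was 0.59 ± 0.17 SE larger in amygdala, and Glra2, whose line difference was smaller in amygdala (-0.36 ± 0.16 SE). The amygdala line difference of Glra1 was known when the genes were chosen, and it enters this comparison. Nothing is therefore read from the count of members against that of all probe sets.

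Genes that make, move or respond to the same signal were read from lists, each gene by its brightest probe set. The lists were chosen with earlier results of these data known, and called genes are named by the size of their difference. Their adjusted p-values between the tissues are therefore descriptions and are not read as tests. Of 11 genes of glycine transport and metabolism, 3 were called higher and 3 lower in amygdala than in hippocampus, where 25.8% of all probe sets were called, 12.9% in each direction. Their median difference was -0.01, against -0.02 over all probe sets. The same background is given for each tissue count of the lists that follow. It covers all probe sets, weak and unnamed ones included, and not the brightest of each gene. No excess of called genes is therefore read from these counts. Slc32a1, the vesicular transporter that loads GABA and glycine, was higher by 1.31 ± 0.08 SE (limma adjusted p = 2.71e-12), and Slc6a9, the glial glycine transporter GlyT1, by 0.33 ± 0.09 SE (limma adjusted p = 0.00591). Lower were Shmt1, a serine hydroxymethyltransferase that forms glycine from serine, at -0.87 ± 0.15 SE, and Gldc, the glycine decarboxylase of the glycine cleavage system, at -0.60 ± 0.07 SE (limma adjusted p = 7.23e-05 and 1.06e-06). The neuronal glycine transporter gene Slc6a5 averaged 7.8 and 9.4 on amygdala arrays of the high and low lines and 13.2 and 9.9 on hippocampus arrays of the high and low lines. Glra4, the remaining alpha subunit gene, had weak signals, at -0.12 ± 0.14 SE between the tissues.

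Of 16 gephyrin partners and proteins of the inhibitory postsynapse, 4 were called higher and 7 lower in amygdala (median -0.03). Lhfpl4, a partner of GABA-A receptors, was higher by 0.68 ± 0.07 SE and the adhesion protein gene Nlgn2 by 0.48 ± 0.07 SE (limma adjusted p = 2.52e-08 and 1.63e-05). The adhesion protein gene Slitrk3 was lower, at -0.71 ± 0.19 SE, and so was Pfn1, a profilin that binds actin and gephyrin, at -0.57 ± 0.06 SE (limma adjusted p = 0.00832 and 1.64e-08). Of 7 genes of molybdenum cofactor synthesis and its enzymes, 2 were called lower and none higher, Xdh, a xanthine dehydrogenase, at -0.46 ± 0.15 SE and Mocs2, of cofactor synthesis, at -0.26 ± 0.04 SE (limma adjusted p = 0.0317 and 6.09e-05). Of 6 genes of chloride cotransport, the neuronal chloride exporter gene Slc12a5 was called higher, by 0.20 ± 0.04 SE, and the importer gene Slc12a2 lower, at -0.31 ± 0.07 SE (limma adjusted p = 7.23e-04 and 0.00159).

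GABA-A receptor subunits, which share gephyrin with the glycine receptors, were called in both directions, 3 higher and 3 lower in amygdala among 8 measured genes (median -0.05). Gabrg1 was higher by 1.30 ± 0.07 SE, Gabra3 by 1.28 ± 0.05 SE and Gabrd by 0.85 ± 0.10 SE, while Gabra5 was lower, at -1.54 ± 0.06 SE (highest limma adjusted p of the 4, 2.94e-07). Between the lines none of the 49 genes of these 6 lists was called by limma in either tissue, where 0.0222% of all probe sets were in hippocampus and 0.00222% in amygdala. At an unadjusted p under 0.05 there were 2 of the 49 in hippocampus, where 8.97% of all probe sets lay, and 0 of the 49 in amygdala, where 6.54% lay. The lowest unadjusted p in hippocampus within them belonged to Slc12a7, a chloride cotransporter gene with weak signals, at -0.60 ± 0.18 SE (limma adjusted p = 0.403), and to Gabra2, at 0.40 ± 0.16 SE (limma adjusted p = 0.522).

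**Figure D5:**
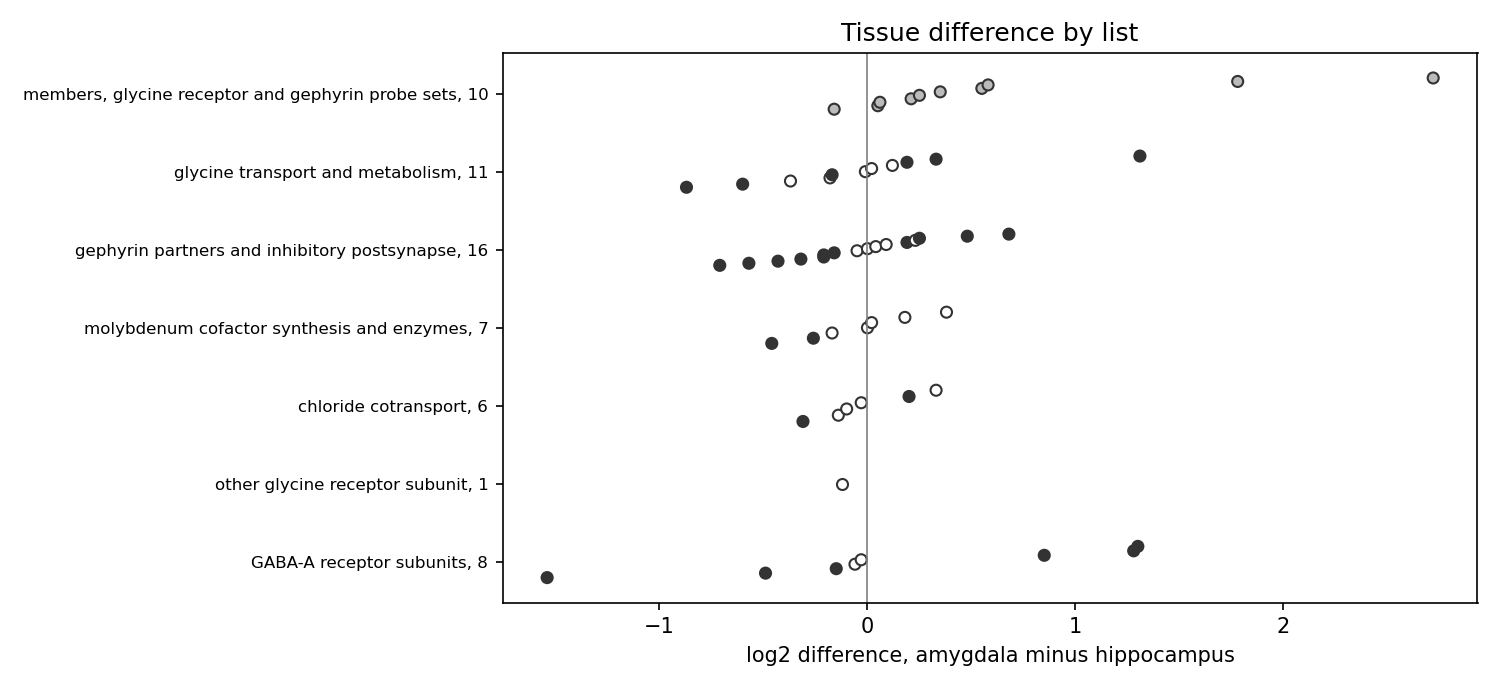
Log2 difference of amygdala minus hippocampus (x axis) for the member probe sets and for the genes of each list, with the number measured beside the name. Black points passed an adjusted p under 0.05, white points did not, and member points are grey because they are shown without a call. The lists hold genes on both sides of 0, from -1.54 for Gabra5 to 1.31 for Slc32a1.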

How the data were processed

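RNA of amygdala and hippocampus was measured on 24 Affymetrix arrays, 6 per line and tissue. The deposited table holds a linear intensity for every probe set and array. The sources used here do not name the signal software. Each array's values show a scaling to a mean of 150.0 after trimming 2% of probe sets at each end. Of 45101 probe sets 64 controls were left out. The platform annotation gave 1 symbol for 34945, several for 932 and none for 9160. Of those with 1 symbol, 34741 were found in the GRCm38.p6 gene table and took its symbol, whether or not it differed. Arrays give no counts, so precision rests on the number of arrays and their spread.

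Log2(signal + 16) was fitted with limma 3.58.1 (lmFit, eBayes) in R 4.3.3 over all 45037 probe sets, the line difference with the 12 arrays of a tissue, the others with 4 group means over 24 arrays. Benjamini-Hochberg adjusted p under 0.05 was called. The fits were tested on simulated arrays with known changes. All member probe sets are described. Up to 4 called genes per list, by size of difference, or the 2 of lowest p are named, and for a member whose group means span over 1 the 3 closest profiles. Slc6a5, Glra4, the markers given singly and the omission of Lypd1 were chosen after values were seen. The members and lists were chosen with earlier results of these data known. Alternatives were 2 other pseudocounts (1 and 64), a filter on the lowest 40%, quantile normalization, median centring, an intensity trend, a joint fit, omitted arrays and the array number as a block. The labels do not say whether arrays of the same number in the 2 tissues come from 1 animal. Deviations from the group means correlated at -0.05 to 0.05 in the 12 same-numbered pairs. That cannot settle it, because array noise or unlike tissues could hide a shared animal.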

Additional observations from a re-analysis of the deposited data

Results flagged for a closer look

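Each of the 10 probe sets was looked at in each of the 4 groups for an array far from the others, 40 looks in all, of which chance flags about 1 in 20. An array was taken up where its gap to the next, divided by the range of the 6 log2 values, passed 0.625, and 4 did. Glra1 1437139_at read 11.8 on hippocampus array 7 of the high line, where the other 5 lay between 0.8 and 2.2. That array also has the highest median signal of all 24, and without it the hippocampus line difference of this probe set was 0.04. Gphn 1426462_at read 587 on amygdala array 7 of the high line, where the others lay between 666 and 712, and that array had the lowest actin 5′ to 3′ ratio, 0.301. Gphn 1430038_at read 65.4 on hippocampus array 5 of the low line, where the others lay between 80.9 and 86.0, and the line difference of this probe set was 0.22 without it. Glra3 1457747_at read 31.6 on hippocampus array 1 of the low line, where the others lay within 34.8 to 36.3, a group with a narrow spread.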

How the results depend on the processing

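Among the 10 members, no probe set was called between the lines in hippocampus, nor for the difference of the line effect, under any alternative run. The amygdala line and tissue contrasts were known when the genes were chosen, so nothing is read from member counts in them. The same holds for the difference of the line effect, which contains the amygdala line difference. In amygdala 0 members passed the threshold, or 1 in a joint fit of all 24 arrays, where 6 of all probe sets did. Between the tissues 5 to 7 members passed. Over all probe sets 25.8% did in the main fit, and 10566 to 12095 did over the alternatives. The tissue difference ran from 1.91 to 3.23 for Glra3 1457747_at and from 1.35 to 1.98 for Glra2, with the ends set by the pseudocount. That of Gphn 1426463_at was -0.16 with all arrays. Its adjusted p, not read as a test here, was under 0.05 with all arrays and not under 7 alternatives. Among these were median centring and the array number as a block (replicate block, -0.16). The rest left out amygdala array 4, 7 or 8, hippocampus array 5, or amygdala arrays 7 and 8 together. Whether same-numbered arrays share an animal is not known, so the block fit is given only as 1 of the alternatives. The line difference of Gphn 1426463_at in amygdala was -0.11 with all arrays and 0.01 without amygdala arrays 7 and 8. The cause was not tested. Of 1018 recomputed member differences, 24 that were smaller than their SE changed sign. The count over all probe sets was 10 in hippocampus and ran from 0 to 57, and it was 1 in amygdala and ran from 0 to 6. Weak signals limit Glra1 and Glra3 1450239_at, whose sizes depend on the pseudocount.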
